A study of Homo sapiens with 9 samples.

Results

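Transcripts of 36 autophagy and lysosome genes were examined in the A673 cell line, an established line of Ewing sarcoma, after RNA interference against LRWD1. The members were a list of gene symbols, and all 36 were among the 23368 rows of the count table. There were 3 libraries per group: controls that received a scrambled siRNA, and cells that received siLRWD1-5 or siLRWD1-6, different siRNA molecules against LRWD1, which encodes a partner of the origin recognition complex of DNA replication. In all groups the cells grew in Tet-approved serum with Zeocin and blasticidin, received 13 nM siRNA with a lipid reagent, and gave RNA 48 h later from independent experiments in this single line. The series belongs to a viability screen by RNA interference for targets in Ewing sarcoma that carries the EWS-FLI1 fusion.

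Macroautophagy encloses cytoplasm in a double membrane, the autophagosome, and delivers it to the lysosome for breakdown. The ULK kinase complex starts the process, a class III phosphatidylinositol 3-kinase marks the membrane with the lipid PI3P, and a ubiquitin-like conjugation system attaches ATG8 proteins such as LC3 to that membrane, where cargo receptors dock. Lysosomal membrane proteins, acid hydrolases and a proton pump complete the degradation, and the transcription factors TFEB, TFE3 and MITF switch on many of these genes when mTORC1, a nutrient-sensing kinase complex on the lysosome, is inactive.

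The libraries held from 11971179 to 15674452 counted reads, and all 36 members passed the filter on low counts, the lowest count of any member being 20 reads of TFEB. LRWD1, the target, lay below the whole scrambled range in all siRNA libraries, with 21.1% of its level left with siLRWD1-5 and 15.1% with siLRWD1-6. Directly compared, LRWD1 was lower with siLRWD1-6 than with siLRWD1-5 by a log2 difference of -0.48 (SE 0.12, edgeR adjusted p = 0.0058). The part of this in the differences between the siRNAs was not tested. Of 10 markers of Ewing sarcoma, 9 had counts in every library, with a summed level of 2072 to 3651 CPM (counts scaled to the library size after TMM adjustment), whereas CD99 had 50 reads in siLRWD1-5 replicate 2 and 0 in the other 8 libraries. The cause of this CD99 pattern was not tested, so these counts are not read as its presence or absence in the cells. The summed level was highest in the scrambled libraries (2838 to 3651 CPM), lowest with siLRWD1-5 (2072 to 2389 CPM) and between them with siLRWD1-6 (2544 to 2784 CPM). CCND1 made up most of each sum, at 2080.5 to 2827 CPM in scrambled, 1494 to 1779 CPM with siLRWD1-5 and 1840 to 2079 CPM with siLRWD1-6. Of 9 tested markers, 6 were called lower with siLRWD1-5 and 1 with siLRWD1-6 (edgeR adjusted p under 0.05). Among all genes tested, 20.3% and 7.78% were called lower. The median log2 fold changes of the markers were -0.53 and -0.08. The part of these differences in the results below was not tested. Scrambled replicate 2 stood apart from the other scrambled libraries, with a chi-square per gene of 29.6 and 25.0 against them, where the other pairs of replicates gave 3.03 to 5.68. In that library 30 of the 36 members were higher than the mean of the other 2 scrambled libraries and 6 were lower, with a median log2 difference of 0.20 (0.01 over all genes tested), and PIK3C3 (0.60) and CD68 (0.59) deviated most. Counts and log2 fold changes against scrambled are therefore given with and without that library for the members.

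**Figure D1:**
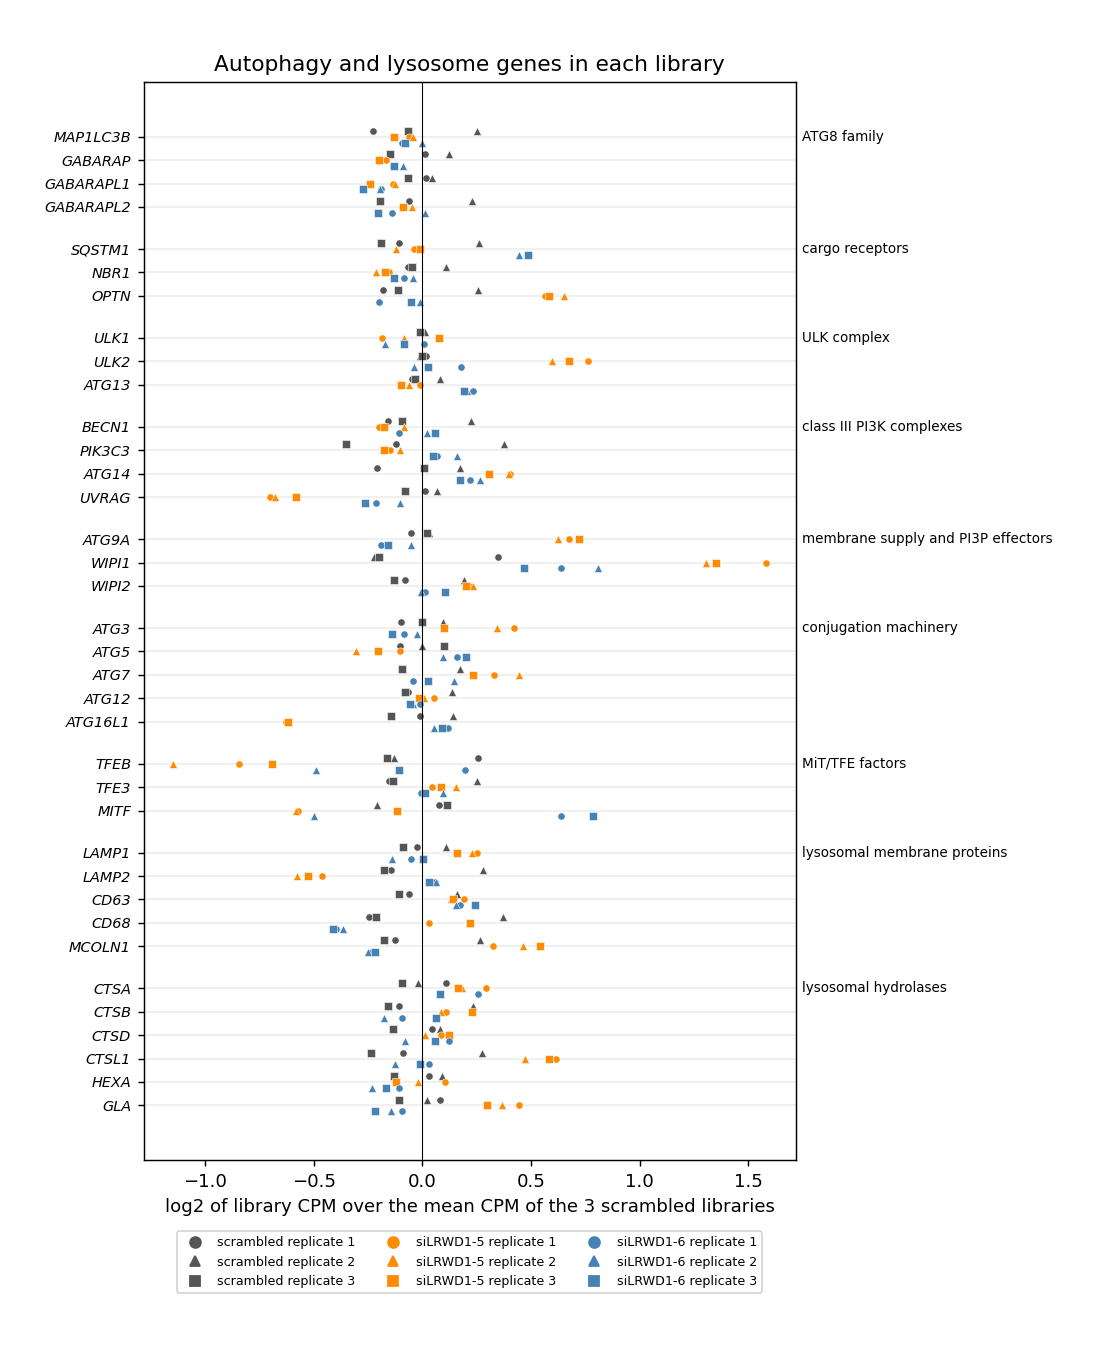
Level of each of the 36 genes in each of the 9 libraries, as the log2 of its CPM over the mean of the scrambled libraries; colours are groups, symbols are replicate numbers and the rows are ordered by role. The scrambled replicate 2 triangle lies right of the other scrambled symbols for most genes, and the siLRWD1-5 symbols of ULK2, ATG9A, WIPI1, UVRAG and ATG16L1 stand clear of the other groups.

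Per kilobase of exon, the most abundant transcripts in the scrambled libraries were CD63, encoding a tetraspanin of late endosomes, at 200.4 ± 20.3 CPM per kb (SD, n = 3), and CTSD, encoding the aspartic protease cathepsin D, at 129.5 ± 10.2 CPM per kb. CTSB (95.0 ± 14.6 CPM per kb) and SQSTM1 (93.2 ± 16.0 CPM per kb) came next and differed from each other by less than their SD. The least abundant were WIPI1 (2.20 ± 0.523 CPM per kb), TFEB (0.735 ± 0.123 CPM per kb) and MITF (0.491 ± 0.0577 CPM per kb), so that among the MiT/TFE factors TFE3, at 44.9 ± 7.43 CPM per kb, had by far the highest level.

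The promoters are shown because MiT/TFE factors bind the sequence CACGTG, the E-box, and most strongly its form with GT before and AC after it, called the CLEAR element. Both read the same on either strand, and the longer contains the shorter. RefSeq promoters (GRCh38.p14, 250 bases before to 50 after each start) matched 32 of the 36 members, and UVRAG, LAMP2, CTSB and HEXA were not matched. CACGTG was present in 7 of the 32 (21.9%), against 10.3% of 10513 promoters of tested genes and 7.43% of all 27305 promoters. The 8 matched promoters of lysosomal membrane proteins and hydrolases held it in 5 cases, those of CD63, CTSA, CTSD, LAMP1 and MCOLN1, and the other 24 in 2, those of ATG14 and ATG3. The CLEAR element was present in 1 member, MCOLN1 (3.12% of 32), against 0.789% of promoters of tested genes. The C/EBP-ATF response element, TGATG then any base then AAT, searched on both strands, was in none of the 32 windows and in 0.485% of promoters of tested genes. The following stretches, 100 bases long and 200 for LAMP1, end at the last base before the start, with each complete CACGTG in capitals.
MCOLN1, chr19:7522524-7522623, plus strand: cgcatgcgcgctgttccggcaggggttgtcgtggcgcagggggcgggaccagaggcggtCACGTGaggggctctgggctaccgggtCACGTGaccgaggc
CTSA, chr20:45891235-45891334, plus strand: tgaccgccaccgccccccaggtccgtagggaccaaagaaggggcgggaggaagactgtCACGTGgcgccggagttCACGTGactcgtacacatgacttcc
LAMP1, chr13:113297039-113297238, plus strand: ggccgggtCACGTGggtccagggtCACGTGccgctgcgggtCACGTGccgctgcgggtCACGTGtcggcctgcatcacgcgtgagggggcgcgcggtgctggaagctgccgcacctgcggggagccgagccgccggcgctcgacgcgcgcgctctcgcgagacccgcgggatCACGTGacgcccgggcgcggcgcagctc
CTSD, chr11:1763928-1764027, minus strand: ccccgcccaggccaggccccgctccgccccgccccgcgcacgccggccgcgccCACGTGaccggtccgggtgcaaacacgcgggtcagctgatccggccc
ATG14, chr14:55411831-55411930, minus strand: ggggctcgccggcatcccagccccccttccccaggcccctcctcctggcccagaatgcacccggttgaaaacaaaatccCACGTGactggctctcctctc
ATG3, chr3:112561963-112562062, minus strand: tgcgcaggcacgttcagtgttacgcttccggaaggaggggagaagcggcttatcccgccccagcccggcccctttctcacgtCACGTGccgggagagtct
LAMP1 holds 5 copies in this stretch, MCOLN1 and CTSA hold 2 each and the others 1 each. With siLRWD1-5, where 18.5% of all genes tested were called higher, CACGTG was in 5 of the 12 matched promoters of members called higher, 0 of 4 of those called lower and 2 of 16 of those not called. With siLRWD1-6 it was in 0 of the 3 called higher, and all 7 genes that hold it were among the 28 matched members not called. A match of letters is a description of the window and not evidence that a factor binds there.

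siLRWD1-5 against scrambled asked what the first siRNA changed among these genes. ATG9A, ULK2, WIPI1, OPTN and CTSL1 were among 12 members that rose, and UVRAG, ATG16L1, LAMP2 and TFEB were among 6 that fell, while 18 did not pass the test. A gene was called when its p from the quasi-likelihood test of edgeR, adjusted after Benjamini and Hochberg over all 13648 genes tested, was under 0.05. Of all genes tested, 18.5% were called higher, 20.3% lower and 38.8% in either direction, against 33.3% higher, 16.7% lower and 50% in either direction among the members. The median log2 fold change of the members was 0.04, and of all genes tested -0.01. Without regard to sign the medians were 0.21 for the members and 0.26 for all genes tested. The larger share called was thus not a sign of larger changes. Without scrambled replicate 2, 17 members were higher and 5 lower, where 24.0% and 25.0% of all genes were called. The calls of GABARAP and GABARAPL1 were lost in that fit and those of WIPI2, ATG5, TFE3, CD63, CD68 and CTSB were gained. The p-values measure the spread between these libraries. In bulk RNA, fewer cells expressing a gene and less RNA per cell cannot be told apart.

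siLRWD1-6 against scrambled asked the same of the second siRNA. SQSTM1, ATG13 and WIPI1 rose, GABARAPL1 fell, and 32 of the 36 members did not pass the test, so 11.1% were called, against 16.6% of all genes (8.81% higher and 7.78% lower). The median log2 fold change of the members was -0.04, and of all genes tested -0.02. Without regard to sign the medians were 0.10 and 0.17. Without scrambled replicate 2, 8 members were higher and 1 lower, where 15.3% and 13.3% of all genes were called, with calls gained by ATG14, PIK3C3, TFE3, CD63 and LAMP2. The count of higher members was 1, SQSTM1, without scrambled replicate 3, siLRWD1-6 replicate 1 or siLRWD1-6 replicate 2, and the lower call of GABARAPL1 was lost without scrambled replicate 1, siLRWD1-5 replicate 2 or any one of the siLRWD1-6 libraries.

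siLRWD1-6 against siLRWD1-5 tested the difference between the siRNAs directly. It called 8 members higher and 11 lower with siLRWD1-6, or 52.8% of 36, against 43.4% of all genes tested (22.4% higher and 20.9% lower). The median absolute log2 difference was 0.27 for the members and 0.28 for all genes tested. With no scaling beyond library size, 7 members were higher and 14 lower, and over all genes the split moved from 3063 higher and 2856 lower to 2478 and 3609. The comparisons with scrambled share their control libraries, so their values are given side by side for each gene. Library ranges are also given, but groups without overlap were common. With siLRWD1-5 the libraries did not overlap scrambled for 21 of 36 members and for 47.8% of all genes tested. With siLRWD1-6 this held for 8 of 36 members and 33.7% of all genes, and between the siRNAs for 24 of 36 and 61%.

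**Figure D2:**
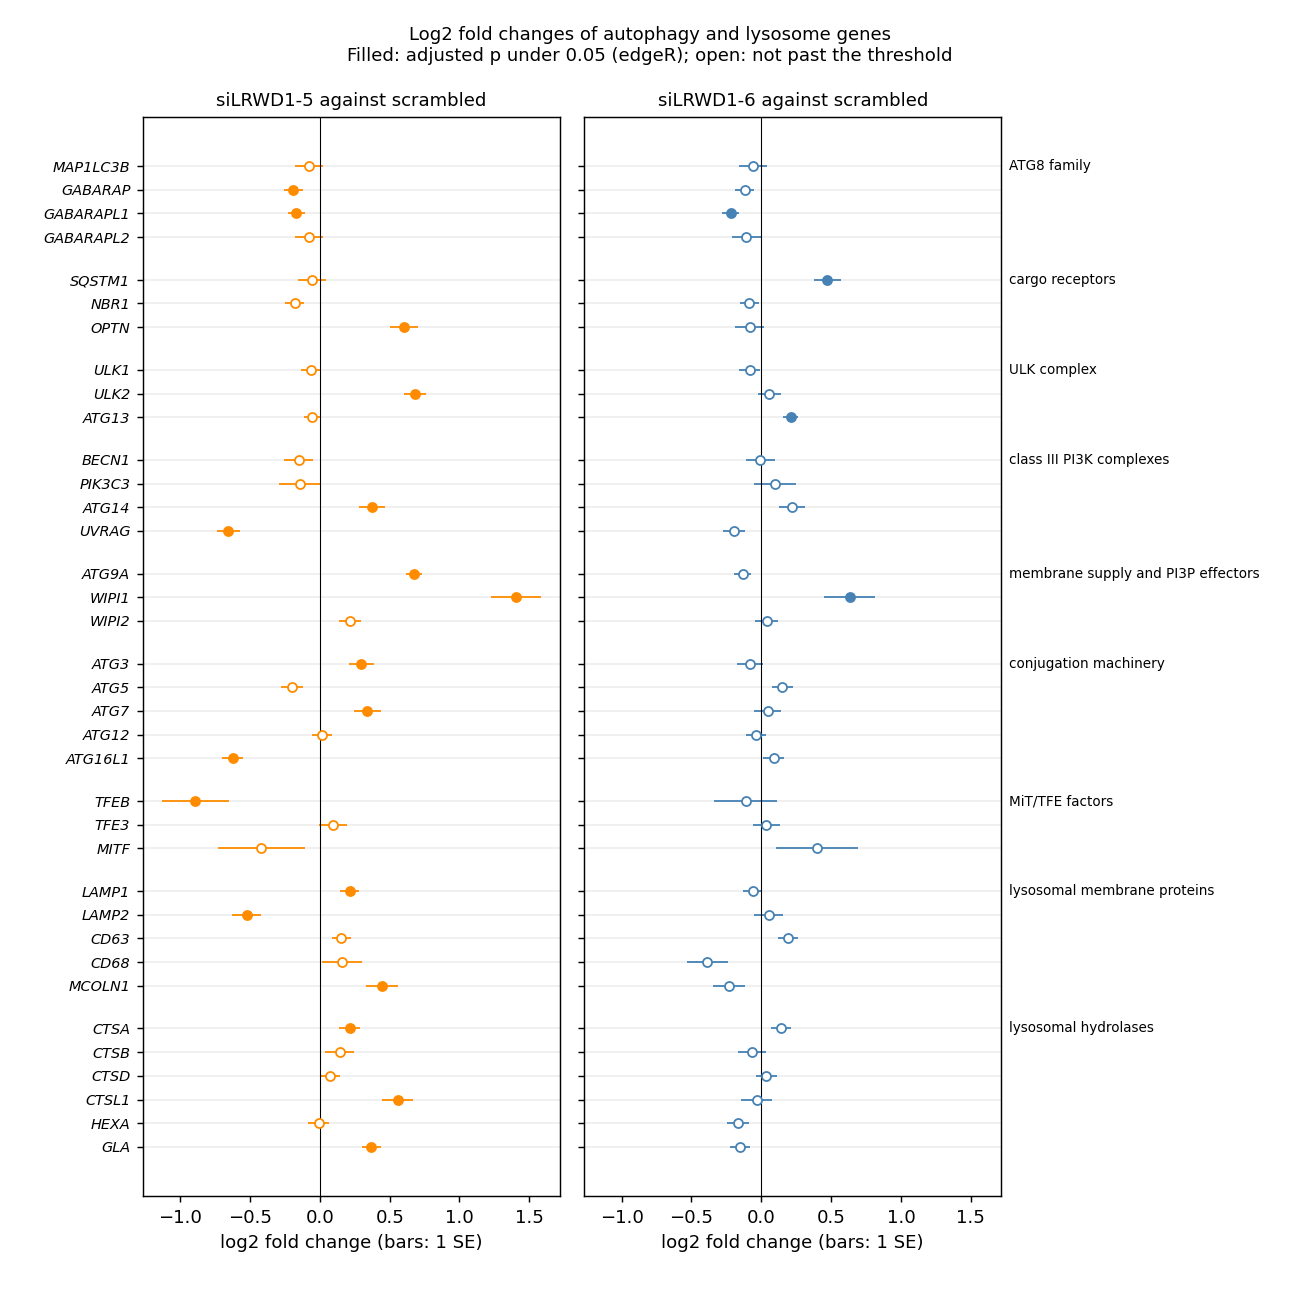
Log2 fold change of each member with siLRWD1-5 (left) and siLRWD1-6 (right) against scrambled, with bars of 1 SE; filled circles passed the adjusted p of 0.05. The left panel has 18 filled circles, from TFEB at -0.89 to WIPI1 at 1.41, and the right panel has 4.

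In the ULK complex, which starts autophagosome formation, ULK2 was higher with siLRWD1-5, ATG13 was higher with siLRWD1-6 and ULK1 passed in neither. ULK2, a kinase paralogous to ULK1, had 30.2, 29.7 and 29.9 CPM in the controls, 50.8, 45.3 and 47.7 CPM after siLRWD1-5 and 33.8, 29.2 and 30.4 CPM after siLRWD1-6. Every siLRWD1-5 library lay above every other library, while scrambled and siLRWD1-6 overlapped. Its log2 fold change was 0.68 with siLRWD1-5 (SE 0.08, edgeR adjusted p = 5.5e-05) and 0.06 with siLRWD1-6 (SE 0.08, edgeR adjusted p = 0.68), and 0.67 and 0.06 without scrambled replicate 2. ATG13, the subunit that links the kinase to its scaffold, had 192, 209 and 194 CPM in the controls, 197, 189.7 and 185 CPM after siLRWD1-5 and 233, 228 and 226 CPM after siLRWD1-6. The siLRWD1-6 libraries were the highest, above all scrambled ones. This was a log2 fold change of 0.21 (SE 0.06, edgeR adjusted p = 0.026), or 0.26 without scrambled replicate 2, against -0.06 with siLRWD1-5 (-0.02 without it), and the call was lost in 5 of 18 alternatives. ULK1 ranged from 90.9 to 109 CPM over all libraries, with log2 fold changes of -0.06 and -0.08, and -0.06 and -0.06 without that library.

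The class III PI3-kinase exists in a complex with ATG14, which acts in autophagosome formation, and in another with UVRAG, which acts in endosome and autophagosome maturation. With siLRWD1-5 ATG14 rose and UVRAG fell, while PIK3C3, the catalytic subunit, and BECN1, the scaffold that both complexes share, did not pass. UVRAG had 36.6, 38.1 and 34.3 CPM in the controls, 22.3, 22.7 and 24.3 CPM after siLRWD1-5 and 31.3, 33.8 and 30.2 CPM after siLRWD1-6. Both siRNA groups lay wholly below the scrambled libraries, siLRWD1-5 by far the lower. The fall was 1.58-fold with siLRWD1-5 (log2 fold change -0.66, SE 0.08, edgeR adjusted p = 8.6e-05), whereas the log2 fold change of -0.19 with siLRWD1-6 missed the threshold (edgeR adjusted p = 0.13). Without scrambled replicate 2 the values were -0.62 and -0.15. ATG14 had 30.8, 40.2 and 35.8 CPM in the controls, 47.1, 46.9 and 44.1 CPM after siLRWD1-5 and 41.4, 42.8 and 40.1 CPM after siLRWD1-6. All siLRWD1-5 libraries exceeded the others. Its log2 fold change of 0.37 with siLRWD1-5 passed (SE 0.09, edgeR adjusted p = 0.0078) and that of 0.22 with siLRWD1-6 did not (edgeR adjusted p = 0.13), but without scrambled replicate 2 both did, at 0.47 and 0.33 (edgeR adjusted p = 0.0045 for the latter). PIK3C3 had 26.1, 36.8 and 22.2 CPM in the controls, the widest relative spread among the controls of this group, and 25.1 to 31.7 CPM with the siRNAs. Its log2 fold change with siLRWD1-5 was -0.14, and 0.08 without scrambled replicate 2. With siLRWD1-6 it was 0.10, and 0.33 and past the threshold without scrambled replicate 2 (edgeR adjusted p = 0.0096). BECN1 had log2 fold changes of -0.15 and -0.01, and -0.03 and 0.13 without that library.

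ATG9A, a transmembrane lipid scramblase whose vesicles supply membrane, rose with siLRWD1-5, and WIPI1, of the WIPI proteins that read PI3P, rose with both siRNAs. ATG9A had 114, 121 and 119.6 CPM in the controls, 188, 182 and 195 CPM after siLRWD1-5 and 103, 114 and 106 CPM after siLRWD1-6. The siLRWD1-5 libraries all lay above the scrambled range and the siLRWD1-6 libraries all below it, though the highest siLRWD1-6 value nearly touched the lowest scrambled one. With siLRWD1-5 ATG9A rose 1.60-fold (log2 fold change 0.67, SE 0.06, edgeR adjusted p = 8.3e-06), while siLRWD1-6 gave a log2 fold change of -0.13 (SE 0.06, edgeR adjusted p = 0.16). Leaving out scrambled replicate 2 gave 0.69 and -0.11. Directly compared, it was lower with siLRWD1-6 than with siLRWD1-5 by a log2 difference of -0.81 (SE 0.06, edgeR adjusted p = 1.6e-06).

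WIPI1 was the member with the largest fold change in either comparison with scrambled, from a low level of 5.31, 3.57 and 3.63 CPM in the controls to 12.5, 10.3 and 10.6 CPM after siLRWD1-5 and 6.48, 7.31 and 5.76 CPM after siLRWD1-6. Neither siRNA group overlapped the scrambled libraries. The rise was 2.65-fold with siLRWD1-5 (log2 fold change 1.41, SE 0.18, edgeR adjusted p = 9.6e-05) and 1.55-fold with siLRWD1-6 (0.63, SE 0.18, edgeR adjusted p = 0.036), the latter lost in 6 of 18 alternatives. Without scrambled replicate 2 the log2 fold changes were 1.30 and 0.54. In the direct comparison WIPI1 was lower with siLRWD1-6 (-0.77, SE 0.17, edgeR adjusted p = 0.0032). ARSG, on the opposite strand, overlaps 28.5% of WIPI1's exon bases and had log2 fold changes of 0.20 and 0.10, neither past the threshold. WIPI2, the paralog that recruits ATG16L1, had 103, 125 and 100.1 CPM in the controls and 127, 129 and 126 CPM after siLRWD1-5. The siLRWD1-5 libraries were above all scrambled ones, though scrambled replicate 2 came close to them. Its log2 fold change of 0.22 just missed the threshold (edgeR adjusted p = 0.052), passed without scrambled replicate 2 (0.32, edgeR adjusted p = 0.00014) and passed with the replicate number as a block (0.22, edgeR adjusted p = 0.038). With siLRWD1-6 WIPI2 had 0.04, and 0.15 without scrambled replicate 2.

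In the conjugation machinery, ATG7 and ATG3, the E1-like and E2-like enzymes that activate and transfer ATG8 proteins, rose with siLRWD1-5, whereas ATG16L1, which with ATG12 and ATG5 forms the complex that sites the conjugation, fell. ATG16L1 had 74.3, 82.7 and 67.8 CPM in the controls, 48.5, 48.8 and 48.7 CPM after siLRWD1-5 and 81.3, 77.7 and 79.8 CPM after siLRWD1-6. The siLRWD1-5 libraries lay close together and far below all others. It fell 1.54-fold with siLRWD1-5 (log2 fold change -0.62, SE 0.08, edgeR adjusted p = 7.4e-05), and had a log2 fold change of 0.09 with siLRWD1-6 (edgeR adjusted p = 0.46). The values were -0.55 and 0.17 without scrambled replicate 2. ATG7 had 29.2, 35.1 and 29.2 CPM in the controls, 39.2, 42.4 and 36.6 CPM after siLRWD1-5 and 30.2, 34.4 and 31.7 CPM after siLRWD1-6. ATG3 had 42.1, 48.1 and 45.0 CPM in the controls, 60.4, 57.2 and 48.2 CPM after siLRWD1-5 and 42.5, 44.3 and 40.9 CPM after siLRWD1-6. For both genes the siLRWD1-5 libraries were above the scrambled range, narrowly in siLRWD1-5 replicate 3. The log2 fold changes with siLRWD1-5 were 0.34 for ATG7 (SE 0.10, edgeR adjusted p = 0.015, and 0.43 without scrambled replicate 2) and 0.30 for ATG3 (SE 0.09, edgeR adjusted p = 0.022, and 0.35 without it). These calls were lost in 3 and 5 of 18 alternatives. With siLRWD1-6 the values were 0.05 for ATG7 and -0.08 for ATG3, neither past the threshold, and 0.15 and -0.02 without that library. VGLL4, on the opposite strand, overlaps 32.2% of ATG7's exon bases and had log2 fold changes of 0.00 and -0.60.

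ATG5 had 54.2, 58.1 and 62.4 CPM in the controls, 54.2, 47.2 and 50.6 CPM after siLRWD1-5 and 65.0, 62.1 and 66.9 CPM after siLRWD1-6. Its siLRWD1-5 libraries lay just below the scrambled ones and its siLRWD1-6 libraries overlapped them. The log2 fold changes of -0.20 and 0.15 did not pass (edgeR adjusted p = 0.06 and 0.21), the first passed without scrambled replicate 2 (-0.20, edgeR adjusted p = 0.041) and the second was 0.16 there, and ATG5 was higher with siLRWD1-6 than with siLRWD1-5 (0.35, SE 0.08, edgeR adjusted p = 0.0033). ATG12, the ubiquitin-like protein joined to ATG5, had log2 fold changes of 0.01 and -0.04, and 0.09 and 0.05 without scrambled replicate 2.

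Of the ATG8 family, whose lipidated proteins coat the autophagosome, GABARAPL1 fell with both siRNAs, 1.16-fold with siLRWD1-6, and GABARAP fell with siLRWD1-5, while MAP1LC3B and GABARAPL2 did not pass. MAP1LC3B had 155, 215 and 173 CPM in the controls, 173, 176 and 165 CPM after siLRWD1-5 and 169.7, 181 and 171 CPM after siLRWD1-6. Scrambled replicate 2 was the highest library, and the siRNA libraries lay among the controls. Its log2 fold changes were -0.08 and -0.06, and 0.07 and 0.10 without scrambled replicate 2. GABARAPL1 had 148, 151 and 140.2 CPM in the controls, 133, 134 and 124 CPM after siLRWD1-5 and 128, 128 and 121 CPM after siLRWD1-6. Both siRNA groups lay below all scrambled libraries, by log2 fold changes of -0.17 (SE 0.06, edgeR adjusted p = 0.045) and -0.22 (SE 0.06, edgeR adjusted p = 0.028). Without scrambled replicate 2 these were -0.15 and -0.19. GABARAP fell by 0.19 (log2) with siLRWD1-5 (SE 0.07, edgeR adjusted p = 0.045), from 193, 208 and 173 to 170.1, 166 and 166 CPM, and had -0.12 with siLRWD1-6 (-0.04 without scrambled replicate 2). The siLRWD1-5 calls of GABARAP and GABARAPL1 were each lost in 14 of 18 alternatives, which included RLE size factors, DESeq2 and the fit without scrambled replicate 2 (-0.13 for GABARAP). GABARAPL2 had log2 fold changes of -0.08 and -0.11, and 0.05 and 0.03 without that library. MAP1LC3B2, a near-identical copy of MAP1LC3B with which reads can be exchanged, had log2 fold changes of -0.10 and -0.03, and GABARAPL3, a copy of GABARAPL1, had 0.00 and -0.26, so the split between copies is uncertain.

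Among the cargo receptors, OPTN rose with siLRWD1-5 and SQSTM1 with siLRWD1-6. SQSTM1 encodes p62, the receptor for ubiquitinated cargo, whose protein level is a common readout of autophagy. Only its transcript was measured here. SQSTM1 had 300.3, 388 and 284 CPM in the controls and 315, 297 and 321 CPM after siLRWD1-5. After siLRWD1-6 it had 455, 441 and 453 CPM. All siLRWD1-6 libraries exceeded every other library, and the siLRWD1-5 libraries lay within the scrambled range. It rose 1.39-fold with siLRWD1-6 (log2 fold change 0.47, SE 0.10, edgeR adjusted p = 0.0079), against -0.06 with siLRWD1-5 (edgeR adjusted p = 0.68), and the values without scrambled replicate 2 were 0.63 and 0.09. In the direct comparison SQSTM1 was higher with siLRWD1-6 by 0.53 (SE 0.10, edgeR adjusted p = 0.0013). C5orf45, now MRNIP, overlaps 39.8% of SQSTM1's exon bases on the opposite strand and had a log2 fold change of -0.33 with siLRWD1-6, at 10.6 and 8.40 CPM. OPTN, encoding optineurin, had 112, 151 and 117 CPM in the controls, 188, 199.6 and 190.4 CPM after siLRWD1-5 and 111, 126 and 122 CPM after siLRWD1-6. All siLRWD1-5 libraries lay above the scrambled range, and siLRWD1-6 overlapped it. The rise was 1.52-fold (log2 fold change 0.60, SE 0.10, edgeR adjusted p = 0.00084, and 0.75 without scrambled replicate 2), whereas siLRWD1-6 gave -0.08 (edgeR adjusted p = 0.63, and 0.07 without it). NBR1, a receptor related to p62, had log2 fold changes of -0.18 (edgeR adjusted p = 0.054) and -0.09, and -0.12 and -0.02 without that library.

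Of the MiT/TFE factors, TFEB fell with siLRWD1-5, and TFE3 and MITF passed in neither comparison with scrambled. TFEB had 3.92, 3.00 and 2.93 CPM in the controls, 1.83, 1.48 and 2.03 CPM after siLRWD1-5 and 3.76, 2.34 and 3.05 CPM after siLRWD1-6. The siLRWD1-5 libraries were the lowest and overlapped neither other group, but TFEB rests on few reads. It fell 1.85-fold with siLRWD1-5 (log2 fold change -0.89, SE 0.24, edgeR adjusted p = 0.012), and the call was lost without scrambled replicate 1 or siLRWD1-5 replicate 2 (edgeR adjusted p = 0.052 in each). With siLRWD1-6 the log2 fold change was -0.11 (edgeR adjusted p = 0.78), and without scrambled replicate 2 the values were -0.96 and -0.17. TFE3 had 138, 183 and 139.8 CPM in the controls, 158, 170.5 and 163 CPM after siLRWD1-5 and 153, 164 and 155 CPM after siLRWD1-6. Its highest library was scrambled replicate 2, and without it both siRNA groups lay above the remaining controls. The log2 fold changes of 0.09 and 0.04 became 0.24 (edgeR adjusted p = 0.0023) and 0.19 (edgeR adjusted p = 0.02) there. MITF had 3.16, 2.59 and 3.24 CPM in the controls, 2.02, 2.00 and 2.76 CPM after siLRWD1-5 and 4.67, 2.12 and 5.16 CPM after siLRWD1-6, where replicate 2 was far below the other libraries of its group. Against scrambled its log2 fold changes were -0.42 and 0.40, and -0.51 and 0.32 without scrambled replicate 2. MITF passed only in the direct comparison (0.82, SE 0.30, edgeR adjusted p = 0.047), a call lost in 9 of 18 alternatives.

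**Figure D3:**
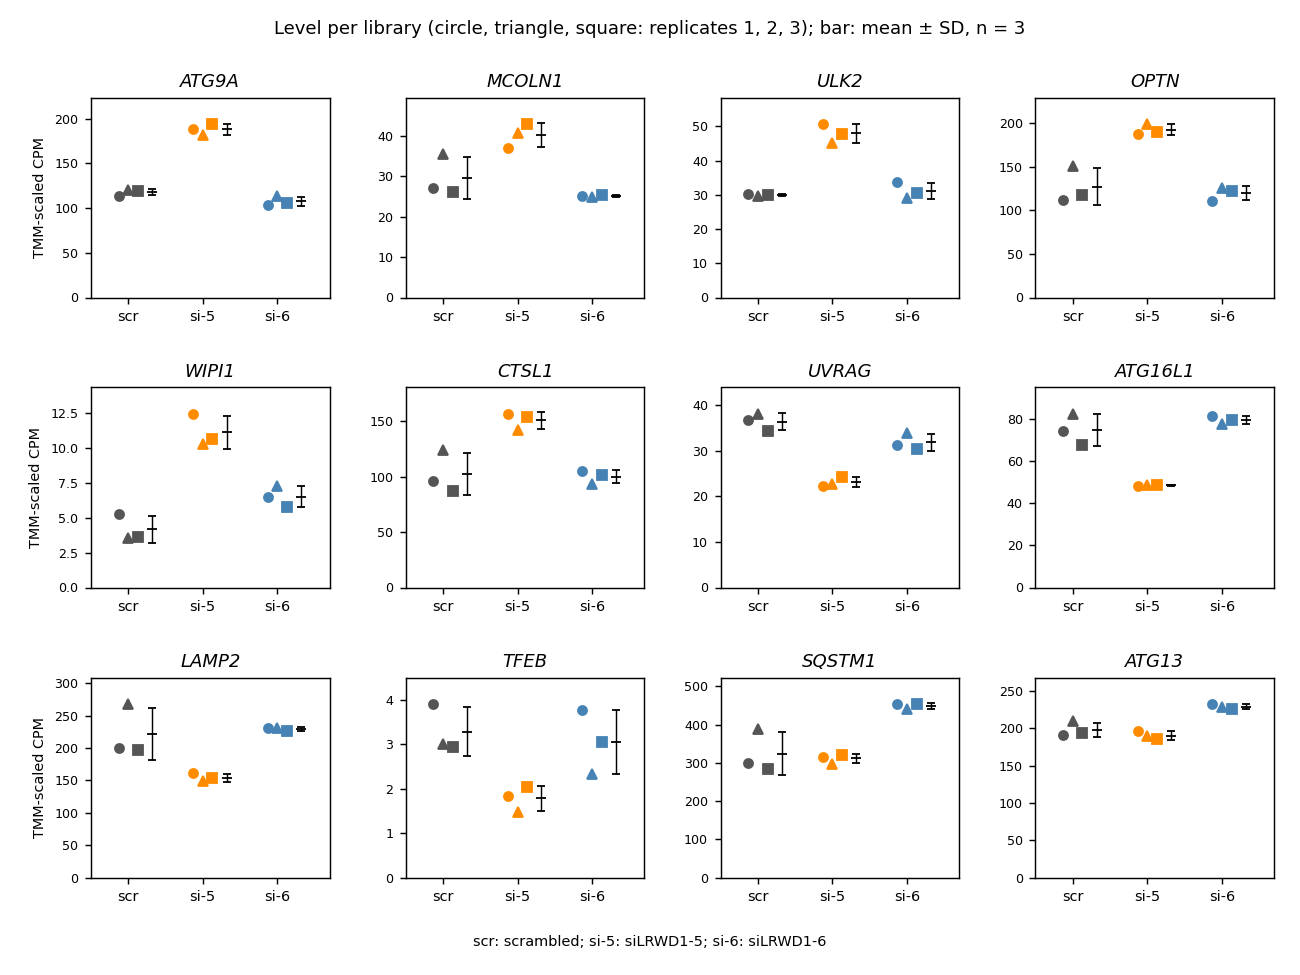
TMM-scaled CPM of 12 members in each library, with the mean and SD of each group (n = 3) as a black bar; every vertical axis starts at 0. ATG9A and MCOLN1 are highest with siLRWD1-5 and lowest with siLRWD1-6, UVRAG, ATG16L1, LAMP2 and TFEB are lowest with siLRWD1-5, and SQSTM1 and ATG13 are highest with siLRWD1-6.

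Of the lysosomal membrane proteins, MCOLN1 and LAMP1 rose and LAMP2 fell with siLRWD1-5, and by edgeR 0 of 5 passed with siLRWD1-6 (CD63 and CD68 had an unadjusted p under 0.05, and DESeq2 and limma-voom called 0). MCOLN1, the calcium channel of the lysosome, had 27.0, 35.4 and 26.1 CPM in the controls, 36.9, 40.6 and 42.9 CPM after siLRWD1-5 and 25.1, 24.8 and 25.3 CPM after siLRWD1-6. As for ATG9A, the siRNA groups lay on opposite sides of the scrambled range. The log2 fold change was 0.45 with siLRWD1-5 (SE 0.11, edgeR adjusted p = 0.0087) and -0.23 with siLRWD1-6 (SE 0.12, edgeR adjusted p = 0.2), or 0.59 and -0.07 without scrambled replicate 2, and siLRWD1-6 was lower than siLRWD1-5 by a log2 difference of -0.68 (SE 0.11, edgeR adjusted p = 0.00059). PNPLA6, on the same strand, shares 0.288% of MCOLN1's exon bases and had log2 fold changes of 0.54 and -1.29 at a mean of 98.3 CPM in the controls; its part in the MCOLN1 values was not tested.

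LAMP2, whose isoforms serve autophagosome fusion and chaperone-mediated autophagy, had 200.2, 268 and 196 CPM in the controls, 161, 148 and 154 CPM after siLRWD1-5 and 231, 231 and 226 CPM after siLRWD1-6. The siLRWD1-5 libraries lay below all others. LAMP2 fell 1.44-fold with siLRWD1-5 (log2 fold change -0.52, SE 0.10, edgeR adjusted p = 0.0024), and by 0.36 on the log2 scale without scrambled replicate 2. With siLRWD1-6 the value of 0.05 became 0.22 and passed without that library (edgeR adjusted p = 0.0052). LAMP1, the other major glycoprotein of the lysosomal membrane, had 227, 249 and 217 CPM in the controls, 275, 270.5 and 258 CPM after siLRWD1-5 and 222, 209.7 and 232 CPM after siLRWD1-6. Its siLRWD1-5 libraries lay above all others, at a log2 fold change of 0.21 (SE 0.07, edgeR adjusted p = 0.024, and 0.27 without scrambled replicate 2), a call lost in 4 of 18 alternatives. With siLRWD1-6 it had -0.06, and 0.01 without that library. Both glycoproteins differed between the siRNAs, LAMP1 by -0.28 and LAMP2 by 0.57 (edgeR adjusted p = 0.0056 and 0.0011).

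CD63 had 443, 516 and 429 CPM in the controls, 528, 506 and 509.8 CPM after siLRWD1-5 and 522, 514 and 546 CPM after siLRWD1-6. Scrambled replicate 2 lay among the siRNA libraries and the other controls below them. Log2 fold changes of 0.15 and 0.19 did not pass (edgeR adjusted p = 0.1 and 0.09), and those of 0.24 and 0.29 without scrambled replicate 2 did (edgeR adjusted p = 0.001 and 0.00043). CD68, a lysosomal glycoprotein best known from macrophages, had 30.1, 46.2 and 30.8 CPM in the controls, 36.5, 41.5 and 41.6 CPM after siLRWD1-5 and 27.1, 27.7 and 26.8 CPM after siLRWD1-6. The siLRWD1-6 libraries lay below all others, and CD68 was lower with siLRWD1-6 than with siLRWD1-5 (-0.55, SE 0.15, edgeR adjusted p = 0.011). Against scrambled it had 0.16 and -0.39, neither past the threshold, and 0.38 (edgeR adjusted p = 0.0007) and -0.15 without scrambled replicate 2. The 10 macrophage markers looked for summed to 1.77 to 2.67 CPM in the controls, 1.45 to 2.22 CPM with siLRWD1-5 and 1.44 to 2.30 CPM with siLRWD1-6, with AIF1 at 0 in every library and PTPRC at 2 reads in all.

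The lysosomal hydrolases CTSL1, GLA and CTSA rose with siLRWD1-5, and by edgeR 0 of 6 passed with siLRWD1-6 (0 also at an unadjusted p under 0.05, and by DESeq2 and limma-voom). CTSL1, encoding the cysteine protease cathepsin L, had 96.5, 124 and 87.0 CPM in the controls, 157, 142 and 153 CPM after siLRWD1-5 and 105, 93.8 and 102 CPM after siLRWD1-6. Scrambled replicate 2 was the highest control and still below every siLRWD1-5 library. The rise was 1.47-fold (log2 fold change 0.56, SE 0.11, edgeR adjusted p = 0.0026, and 0.71 without that library), against -0.03 with siLRWD1-6 (0.14 without it). GLA, encoding alpha-galactosidase A, the enzyme deficient in Fabry disease, had 88.3, 84.6 and 77.2 CPM in the controls, 113, 107 and 102 CPM after siLRWD1-5 and 78.0, 75.4 and 71.7 CPM after siLRWD1-6. All siLRWD1-5 libraries exceeded the scrambled ones, while siLRWD1-6 and scrambled overlapped. Its log2 fold changes were 0.37 (SE 0.07, edgeR adjusted p = 0.0016) and -0.15 (edgeR adjusted p = 0.17), or 0.38 and -0.13 without scrambled replicate 2. CTSA, encoding the protective protein cathepsin A, had 164, 149.7 and 142 CPM in the controls, 186, 172 and 169.9 CPM after siLRWD1-5 and 181, 161 and 161 CPM after siLRWD1-6. The siLRWD1-5 libraries lay above the scrambled range by a small margin, at a log2 fold change of 0.21 (SE 0.07, edgeR adjusted p = 0.039), which was 0.20 without scrambled replicate 2 and lost its call in 7 of 18 alternatives. With siLRWD1-6 it was 0.14, and 0.14 without that library.

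CTSB, encoding cathepsin B, had 367, 466 and 355 CPM in the controls and 426, 419 and 464 CPM after siLRWD1-5. The control replicate 2 exceeded all siLRWD1-5 libraries, and the other controls lay below them. Its log2 fold change of 0.14 became 0.27 and passed without scrambled replicate 2 (edgeR adjusted p = 0.0018), and siLRWD1-6 gave -0.07 (0.08 without it). CTSD had log2 fold changes of 0.07 and 0.04, and HEXA, encoding the alpha subunit of beta-hexosaminidase, -0.01 and -0.17. Without scrambled replicate 2 these were 0.11 and 0.09 for CTSD and 0.04 and -0.11 for HEXA.

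Beyond the members, 40 other lysosomal enzymes and cofactors were listed, of which 39 were tested. With siLRWD1-5, 22 were higher and 4 lower, with a median log2 fold change of 0.31, where 18.5% and 20.3% of all genes were called; 26 and 5 were called without scrambled replicate 2, with a median of 0.26. The cathepsin genes CTSF and CTSO rose from 11.8 ± 2.59 to 37.2 ± 2.60 CPM (SD, n = 3) and from 7.04 ± 1.08 to 21.9 ± 2.44 CPM, log2 fold changes of 1.65 (SE 0.14) and 1.64 (SE 0.14, edgeR adjusted p = 6.5e-06 and 4.7e-06). GM2A, encoding the activator protein that presents ganglioside to beta-hexosaminidase, went the other way, from 46.2 ± 2.37 to 23.1 ± 0.918 CPM (edgeR adjusted p = 2.5e-06), beside HEXA at -0.01. With siLRWD1-6, 3 of the 39 rose and 5 fell, the median being 0.03, and 8 and 9 without scrambled replicate 2. Of all genes tested, 8.81% were called higher and 7.78% lower, or 15.3% and 13.3% without that library. In either direction 20.5% of the 39 were called with siLRWD1-6, against 16.6% of all genes. Without scrambled replicate 2 both shares of the 39 were above those of all genes. Among the genes called with siLRWD1-6 in the main fit were CTSO, GM2A and TPP1. CTSO rose (0.54, SE 0.14, edgeR adjusted p = 0.023), and GM2A and the tripeptidyl peptidase gene TPP1 fell, by 0.39 and 0.48 on the log2 scale (edgeR adjusted p = 0.0043 and 0.011). In the direct comparison 3 of the 39 had higher and 21 lower levels with siLRWD1-6, the median being -0.30. Of all genes tested, 22.4% were higher and 20.9% lower there.

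Of 25 other lysosomal membrane proteins, 11 were higher and 2 lower with siLRWD1-5 (14 and 3 without scrambled replicate 2), and 2 were higher and 6 lower with siLRWD1-6 (5 and 8 without it). In all 52% were called with siLRWD1-5, against 38.8% of all genes, and 32% with siLRWD1-6, against 16.6%. LITAF and CD164 rose with siLRWD1-5 by log2 fold changes of 0.87 and 0.56, and LAPTM4A fell by 0.71 (edgeR adjusted p = 1.6e-06, 3.4e-05 and 7.4e-06). With siLRWD1-6, MFSD1 fell from 41.5 ± 8.64 to 9.85 ± 0.153 CPM, OSTM1, a subunit of the lysosomal chloride transporter, from 69.2 ± 1.67 to 24.9 ± 1.36 CPM, and SLC36A1, a lysosomal amino acid transporter, from 31.4 ± 1.88 to 19.2 ± 0.164 CPM. These 3 genes had log2 fold changes of -2.07, -1.47 and -0.71 with siLRWD1-6 (edgeR adjusted p = 3.9e-06, 2.2e-06 and 0.00016) and of 0.54, 0.27 and 0.51 with siLRWD1-5 (edgeR adjusted p = 0.0034, 0.021 and 0.00031). They were thus called in opposite directions by the siRNAs, and the direct comparison gave -2.61, -1.74 and -1.22 (edgeR adjusted p = 1.1e-07, 9.2e-08 and 5.9e-07).

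The V-ATPase, the proton pump that acidifies the lysosome, had 22 tested subunit or accessory genes, of which 2 were higher and 4 lower with siLRWD1-5 (4 and 4 without scrambled replicate 2), and 6 were lower with siLRWD1-6, the other 16 passing in neither direction (5 lower without scrambled replicate 2). This is 27.3% called with either siRNA, below the 38.8% of all genes for siLRWD1-5 and above the 16.6% for siLRWD1-6. Without scrambled replicate 2, 28.5% of all genes were called with siLRWD1-6, and the V-ATPase share, 5 of 22, was below that. All 5 were lower, where 13.3% of all genes were called lower. ATP6V0D1, of the membrane sector, fell from 127 ± 18.3 CPM to 36.1 ± 4.46 CPM with siLRWD1-5 and 78.7 ± 1.33 CPM with siLRWD1-6, log2 fold changes of -1.81 and -0.69 (edgeR adjusted p = 5.2e-07 and 0.0012). ATP6V1C1, of the catalytic sector, fell by 1.17 (log2) with siLRWD1-5 (edgeR adjusted p = 0.00025), and ATP6V0C, which forms the proteolipid ring, by 0.83 with siLRWD1-6 (edgeR adjusted p = 8.4e-05).

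Of 31 tested genes of the other autophagy machinery, 2 were higher and 6 lower with siLRWD1-5 and 3 higher and 1 lower with siLRWD1-6 (4 and 6, and 6 and 1, without scrambled replicate 2). The shares called, 25.8% and 12.9%, were below those of all genes, 38.8% and 16.6%. EI24, encoding a membrane protein of the endoplasmic reticulum needed for autophagy, fell from 184 ± 15.1 to 34.6 ± 0.515 CPM with siLRWD1-5 (-2.41, SE 0.07, edgeR adjusted p = 3.4e-09) and had 186 ± 2.30 CPM with siLRWD1-6. CALCOCO2, the cargo receptor NDP52, fell by 0.84 (log2) with siLRWD1-5 (edgeR adjusted p = 1.5e-05), and ATG2A, a lipid transfer protein that works with ATG9A and the WIPI proteins, rose by 0.51 (edgeR adjusted p = 0.00036). Its paralog ATG2B rose by 0.33 with siLRWD1-6 and C12orf44, now ATG101, the partner of ATG13, by 0.34 (edgeR adjusted p = 0.011 and 0.019). VMP1 was the gene called lower with siLRWD1-6, at a log2 fold change of -0.31 (edgeR adjusted p = 0.029).

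Of 35 tested genes of mTORC1 and nutrient signalling at the lysosome, 8 were higher and 6 lower with siLRWD1-5, and 7 higher and 3 lower with siLRWD1-6 (13 and 6, and 8 and 3, without scrambled replicate 2). With siLRWD1-5 the 40% called is near the 38.8% of all genes, and with siLRWD1-6 28.6% were called, against 16.6%. Without scrambled replicate 2, 28.5% of all genes were called with siLRWD1-6. The share of this list in that fit, 8 higher and 3 lower of 35, was near it. RHEB, the GTPase that activates mTORC1, fell from 36.3 ± 2.15 to 9.35 ± 0.961 CPM with siLRWD1-5 (-1.96, SE 0.10, edgeR adjusted p = 1.5e-07) and had 36.7 ± 2.36 CPM with siLRWD1-6. PRKAA1, a catalytic subunit of AMPK, fell by 0.85 on the log2 scale (edgeR adjusted p = 1.6e-06). With siLRWD1-6 the mTORC1 inhibitors DDIT4 and SESN2 rose from 8.25 ± 2.38 to 44.2 ± 3.33 CPM and from 27.5 ± 3.47 to 64.7 ± 3.94 CPM, and MLST8, a subunit of the mTOR complexes, fell from 53.6 ± 2.99 to 23.2 ± 1.96 CPM (edgeR adjusted p = 6.2e-06, 2.5e-05 and 6.1e-06). SESN2 and MLST8 had the opposite signs with siLRWD1-5, -0.73 and 0.37 (edgeR adjusted p = 0.00047 and 0.0031), and the direct comparison gave 1.97 and -1.58 (edgeR adjusted p = 2.5e-07 and 1.4e-07). Of 25 genes of lysosomal sorting and fusion, 5 were higher and 6 lower with siLRWD1-5 (6 and 5 without scrambled replicate 2) and 1 higher and 2 lower with siLRWD1-6 (4 and 3 without it), or 44% and 12% called, near the 38.8% and 16.6% of all genes. M6PR, the small mannose 6-phosphate receptor that carries hydrolases to the lysosome, rose by 0.84 and NAGPA, which uncovers the mannose 6-phosphate tag, by 0.69 with siLRWD1-5 (edgeR adjusted p = 6.9e-05 and 0.00019).

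**Figure D4:**
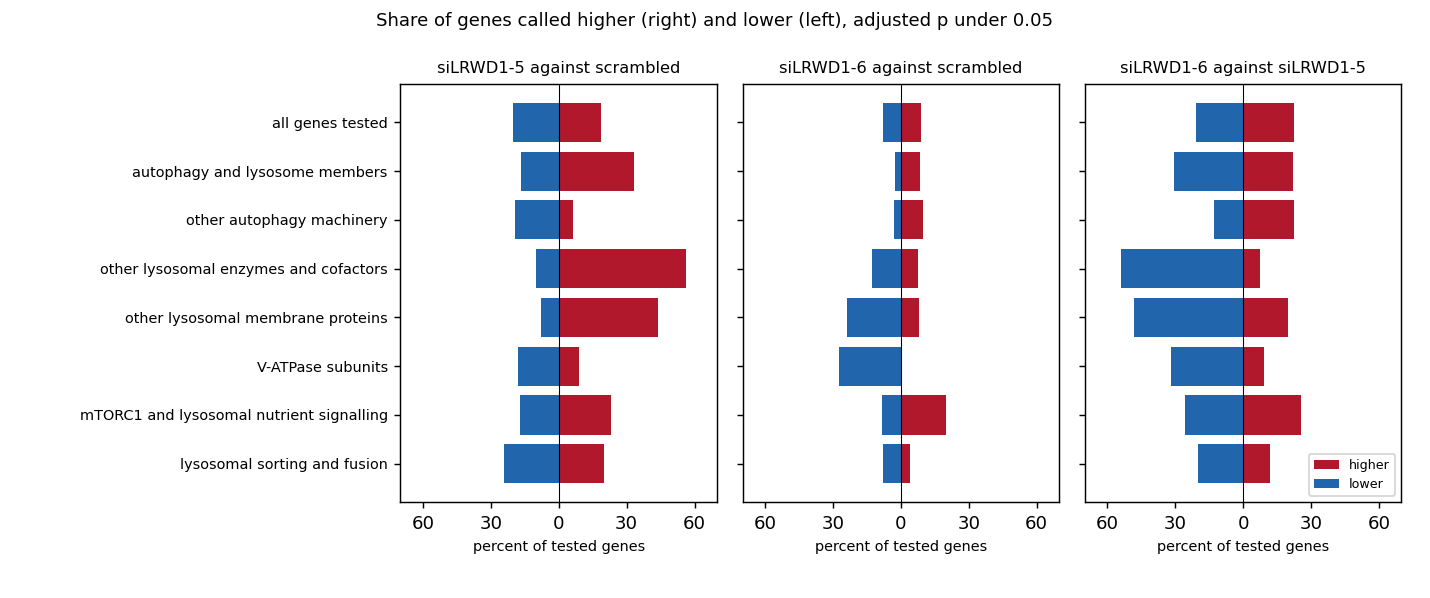
Percent of tested genes called higher (red, right) and lower (blue, left) among all genes, the 36 members and 6 wider gene lists, in each comparison. With siLRWD1-5 the bars of the other lysosomal enzymes (22 of 39 higher) and membrane proteins (11 of 25 higher) reach furthest to the right, and with siLRWD1-6 the V-ATPase bar (6 of 22 lower) reaches furthest to the left.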

How the data were processed

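RNA of 9 A673 libraries, 3 per siRNA group, was sequenced after an unstranded poly(A) preparation (TruSeq RNA v2, per the labels). The authors deposited raw counts per gene symbol, and per the submitters' processing notes the tools named are bcl2fastq 1.8.4, TopHat2 2.0.10 and HTSeq 0.5.4p3 with build hg19. Which annotation, counting mode and strand option were used is not given in the sources here, and the kit does not mark strand, so reads of overlapping genes cannot be told apart. The table held 0 columns of other series.

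Counts were fitted in edgeR 4.0.16 (R 4.3.3) by the robust quasi-likelihood test over all 9 libraries with TMM scaling. The filter filterByExpr by group left 13648 of 23368 genes, with at least 99.92% of the counts of each library, and 4596 genes had no count. P-values were adjusted by Benjamini-Hochberg over all 13648 genes, and SE is the log2 fold change over the square root of F. Levels per kilobase used exon-union lengths of GENCODE v29. The code was tested on simulated data for siLRWD1-5 against scrambled. Planted log2 changes of 0.5, 1 and 2 were recovered in 46.8%, 80% and 98.5% of genes, and 6.17% of the calls were false. A small change that did not pass the test can therefore have been missed. Alternatives were RLE factors, no scaling, other filters, DESeq2 1.42.0, limma-voom (limma 3.58.1), the replicate block, subsets of libraries and leaving out each library. Figures and promoter searches used Python 3.11.15, pandas 2.3.3 and numpy 2.4.6.

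Replicate numbers in the labels are shared between groups. Deviations from group means of libraries with the same number correlated at 0.281, 0.404 and 0.126 between scrambled and siLRWD1-5. Between the siRNAs they correlated at 0.193, 0.247 and 0.106. The main tests used the group only and ignored this pairing, and the replicate number was a block only in an alternative. With that block 43.4% of all genes tested were called for siLRWD1-5 against scrambled, where the main test called 38.8%. The members and lists were chosen with earlier results of these data known. All members may be named, and of each wider list up to 3 called genes with the smallest p per comparison, plus MFSD1, EI24 and DDIT4, which earlier work named.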

Additional observations from a re-analysis of the deposited data

Results flagged for a closer look

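The effect of the siRNAs differed for 19 of the 36 members, by the direct test of siLRWD1-6 against siLRWD1-5 in edgeR. This is 52.8% of the members, where 43.4% of all genes tested were called. The median absolute log2 difference was 0.27 for the members and 0.28 for all genes tested. The log2 difference was negative, lower with siLRWD1-6, for ATG9A at -0.81, WIPI1 at -0.77, OPTN at -0.69, MCOLN1 at -0.68, ULK2 at -0.62 and CTSL1 at -0.59. It was also negative for CD68 at -0.55, GLA at -0.52, ATG3 at -0.38, ATG7 at -0.29 and LAMP1 at -0.28. It was positive, higher with siLRWD1-6, for MITF at 0.82, TFEB at 0.78, ATG16L1 at 0.71 and LAMP2 at 0.57. The remaining positive differences were SQSTM1 at 0.53, UVRAG at 0.46, ATG5 at 0.35 and ATG13 at 0.27. The calls of MITF, ATG7 and TFEB were lost in 9, 4 and 3 of 18 alternatives, and those of the other 16 in none.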

How the results depend on the processing

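Of 41 member calls, 28 were kept under all 18 alternatives, namely 11 of 18 for siLRWD1-5, 1 of 4 for siLRWD1-6 (SQSTM1) and 16 of 19 in the direct comparison, and none reversed. For siLRWD1-6 against scrambled, fitting only the groups compared gave 696 genes lower, 1 member higher and 0 lower, and only libraries 1 and 3 of each group gave 1933 genes higher, 1646 lower and 7 members higher; the cause was not tested. Leaving out each library in turn gave, for siLRWD1-6, 702 to 2115 genes higher, 546 to 1838 lower, 1 to 8 members higher and 0 to 1 lower. For siLRWD1-5 it gave 8 to 17 members higher and 3 to 6 lower, the 3 being without siLRWD1-5 replicate 2. There 1956 to 3326 of all genes were higher and 2233 to 3464 lower. In the direct comparison it gave 6 to 9 members higher and 10 to 13 lower, with 2488 to 3954 of all genes higher and 2197 to 3597 lower. Fits that leave 2 libraries in a group rest on fewer samples. With the replicate number as a block, the call of WIPI2 with siLRWD1-5 was gained, and no member call changed in the direct comparison. Scrambled and siLRWD1-6 libraries of the same number correlated at 0.312, 0.259 and 0.0304, the last being weak. In that comparison the block gave 2 members lower, the second being CD68. Of the 9 libraries, 8 correlated best with their own number in both other groups. TFEB, WIPI1 and MITF rest on the fewest reads.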
